A study of Mus musculus with 20 samples.

Results

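Haemoglobin and red cell genes were examined in the lungs of AKR/J males, an inbred mouse strain, kept in room air or exposed to cigarette smoke. The 5 members were the beta globin genes Hbb-bt and Hbb-b2, the alpha globin gene Hba-a1, the haem synthesis gene Alas2 and the red cell anion exchanger gene Slc4a1. They were chosen by name, with earlier results of these data known. Every probe whose annotated symbol was 1 of these 5 was taken, which gave 1 probe each among the 25697 probes of the array. All 5 were among the 12719 features tested, of which 11196 were named genes.

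Total RNA of 20 lung samples had been hybridised to Illumina mouse bead arrays, 1 array a sample, on which the brightness of the beads that carry a probe is averaged into its signal. The room air group (RA) had 7 arrays, room air with losartan (RA_Los) 3, cigarette smoke (CS) 7 and cigarette smoke with losartan (CS_Los) 3. Batch 1, as the labels call it, held 3 arrays of each group, and batch 2 held 4 RA and 4 CS arrays, numbered 4 to 7 here. All mice were AKR/J males aged 6 to 8 weeks when they were divided into groups, and neither the RA nor the CS group received losartan. Losartan, which blocks the type 1 receptor of angiotensin II, was given by mouth at 0.6 g/L, per the labels in drinking water. Smoke came from reference cigarettes for 2 h a day on 5 days a week, with carbon monoxide near 350 ppm. The labels give the length of exposure both as 6 to 7 weeks and as 2 months. They do not say that replicates were separate animals, so the p-values measure only how far these samples spread, which may be technical. The labels used here do not state whether the lungs were flushed of blood, or at what hour they were taken.

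Haemoglobin carries oxygen in red cells as a tetramer of alpha and beta globin chains, each holding a haem group. The globins and haem are made while red cell precursors mature in bone marrow and spleen, under the transcription factors GATA1 and KLF1. Mature mammalian red cells have no nucleus, and the youngest of them, reticulocytes, still carry globin mRNA into the circulation. In a lung sample such transcripts are therefore usually read with the blood it holds. Alas2 encodes the erythroid form of the rate-limiting enzyme of haem synthesis, whose housekeeping form is Alas1. Slc4a1 encodes band 3, which exchanges chloride for bicarbonate across the red cell membrane and anchors the membrane skeleton. In such a bulk sample, fewer cells of a type and less RNA per cell cannot be told apart. The adult globin genes have near-identical copies in the mouse, so each globin value may hold signal from the copies of that chain, and the values of Hbb-bt and Hbb-b2 are not independent.

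RefSeq's promoter table for the GRCm38.p6 assembly held 3 of the 5 members, Hbb-bt, Hba-a1 and Alas2. Their sequences, from 250 bases before the transcription start to 50 after it, are shown because these genes varied together from array to array. They are the sequences of the assembly, were not read in these AKR/J mice, and are written 5′ to 3′ on the strand of the gene. The region of Hbb-bt is chr7:103813874-103814173 on the minus strand, that of Hba-a1 is chr11:32283422-32283721 on the plus strand, and that of Alas2 is chrX:150547167-150547466 on the plus strand. Capitals mark 4 kinds of short motif on either strand.
Hbb-bt: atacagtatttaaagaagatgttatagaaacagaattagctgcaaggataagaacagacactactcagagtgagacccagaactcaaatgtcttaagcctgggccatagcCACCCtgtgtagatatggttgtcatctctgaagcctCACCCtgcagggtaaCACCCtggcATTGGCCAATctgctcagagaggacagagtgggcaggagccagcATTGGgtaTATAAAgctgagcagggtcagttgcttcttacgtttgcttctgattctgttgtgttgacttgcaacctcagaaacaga
Hba-a1: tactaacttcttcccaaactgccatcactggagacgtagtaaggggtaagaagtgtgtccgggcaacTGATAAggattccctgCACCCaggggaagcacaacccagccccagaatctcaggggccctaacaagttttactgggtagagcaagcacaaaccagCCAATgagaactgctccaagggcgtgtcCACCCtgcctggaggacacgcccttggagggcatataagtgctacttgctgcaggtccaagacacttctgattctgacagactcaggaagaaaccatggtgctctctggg
Alas2: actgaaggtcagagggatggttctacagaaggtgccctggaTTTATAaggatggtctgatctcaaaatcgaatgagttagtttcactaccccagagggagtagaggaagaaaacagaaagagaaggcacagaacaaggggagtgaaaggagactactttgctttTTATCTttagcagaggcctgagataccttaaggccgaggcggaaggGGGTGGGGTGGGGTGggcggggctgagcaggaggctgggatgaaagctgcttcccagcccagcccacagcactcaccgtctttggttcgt
The motifs searched were the GATA word (AGATAA or TGATAA or AGATAG or TGATAG), the CACCC box, the CCAAT box and the TATA word TATAAA. Positions count back from the transcription start to the first base of the match as written. Hbb-bt held TATAAA at -28, CCAAT at -75, CACCC at -140, -104 and -89, and CCAAT on the opposite strand at -80 and -36, of which the former adjoins the match at -75. Hba-a1 held CCAAT at -88, CACCC at -167 and -60, and a GATA word at -183. Alas2 held CACCC on the opposite strand at -40, -35 and -30, next to each other, with a GATA word at -86 and TATAAA at -209, also on the opposite strand. Among all 32851 promoters of that length in the table, 29.8% held the GATA word, 57.5% CACCC, 37.4% CCAAT and 13.6% TATAAA. All 3 promoters held CACCC. A match here is a description of the letters in these windows.

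The arrays differed in brightness between batches, with median signals of 57.2 to 72.3 in batch 1 and 87.4 to 100.4 in batch 2. Between 13946 and 15784 probes were detected per array at a detection p under 0.05. Of 11 lung epithelial marker genes on the array, 10 passed the filter on detection, and none of them differed between CS and RA at an adjusted p under 0.05. Signals before normalization are given for each probe on its own, since probes differ in how brightly they hybridise.

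Hba-a1, the alpha globin gene, was detected on all 20 arrays. On the 7 RA arrays its signal ran from 1791 on RA 3 through a median of 19714 to 40621 on RA 6. On the 7 CS arrays it ran from 664 on CS 2 through a median of 5719 to 18801 on CS 4. The groups overlapped in these signals, pooled over batches of unlike brightness, with CS 4 close to the RA median and RA 1, RA 3 and RA 4 below the CS median. On normalized values RA 1 (12.97) stood above the CS median (12.01), while RA 3 and RA 4 stayed below it. In batch 1 every RA array then lay above every CS array, and in batch 2 the groups still overlapped. The RA_Los signals were 9006, 3144.5 and 771, and the CS_Los signals were 2326, 6756 and 3917.5, for replicates 1 to 3 in turn. RA_Los 1 was thus far above RA_Los 3, while the CS_Los arrays lay closer together. The brightest signal of any probe on the arrays was 54862, and whether Hba-a1 saturated at 40621 was not tested.

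Hbb-bt, an adult beta globin gene, was also detected on all 20 arrays. Its RA signals ran from 151 on RA 3 through a median of 438 to 741 on RA 5, and its CS signals from 60.8 on CS 2 through a median of 123 to 356 on CS 4. In these signals, pooled over both batches, CS 4 was the only CS array above any RA array, and it stood above 3 of them. Among the RA arrays of its own batch it stood above RA 4 alone. The RA_Los signals were 650.5, 264 and 95.4, and the CS_Los signals were 141, 327 and 162. All 3 CS_Los arrays lay above the 3 CS arrays of batch 1, on normalized values by little (CS_Los 1 at 7.29, CS 1 at 7.22). On those values Hba-a1 did the same, while the groups overlapped for Hbb-b2, Alas2 and Slc4a1. The share of all features that lay apart in this way was not counted.

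Hbb-b2, also an adult beta globin gene, was detected on all 20 arrays too. Which beta globin copies these mice carry was not tested. Its RA signals ran from 149 on RA 3 through a median of 761 to 1340.1 on RA 5, and its CS signals from 64.3 on CS 2 through a median of 198 to 683 on CS 4. The RA_Los signals were 692, 343 and 107, and the CS_Los signals were 151, 431 and 195.5. The high and low arrays were those of Hbb-bt.

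Alas2 was detected on 16 of 20 arrays. Its RA signals ran from 82.3 on RA 4 through a median of 257 to 461.5 on RA 6, and all 7 were detected. Its CS signals ran from 50.6 on CS 2 through a median of 87.5 to 239.5 on CS 4, and 5 of 7 were detected. The RA_Los signals were 282, 94 and 54.4, the last not detected, and the CS_Los signals were 56.5, 148 and 91.9, the first not detected. Every undetected value was on a batch 1 array.

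Slc4a1 was detected on 8 of 20 arrays. Its RA signals ran from 58.6 on RA 1 through a median of 78.8 to 116 on RA 6, detected on 6 of 7 arrays. Its CS signals ran from 46.9 on CS 2 through a median of 50.4 to 62.5 on CS 5, detected on 0 of 7. The RA_Los signals were 117, 52.9 and 55.5 and the CS_Los signals 43.6, 72.2 and 43.2, with only RA_Los 1 and CS_Los 2 detected. These were also the brightest arrays of their groups for the globins and Alas2.

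**Figure D1:**
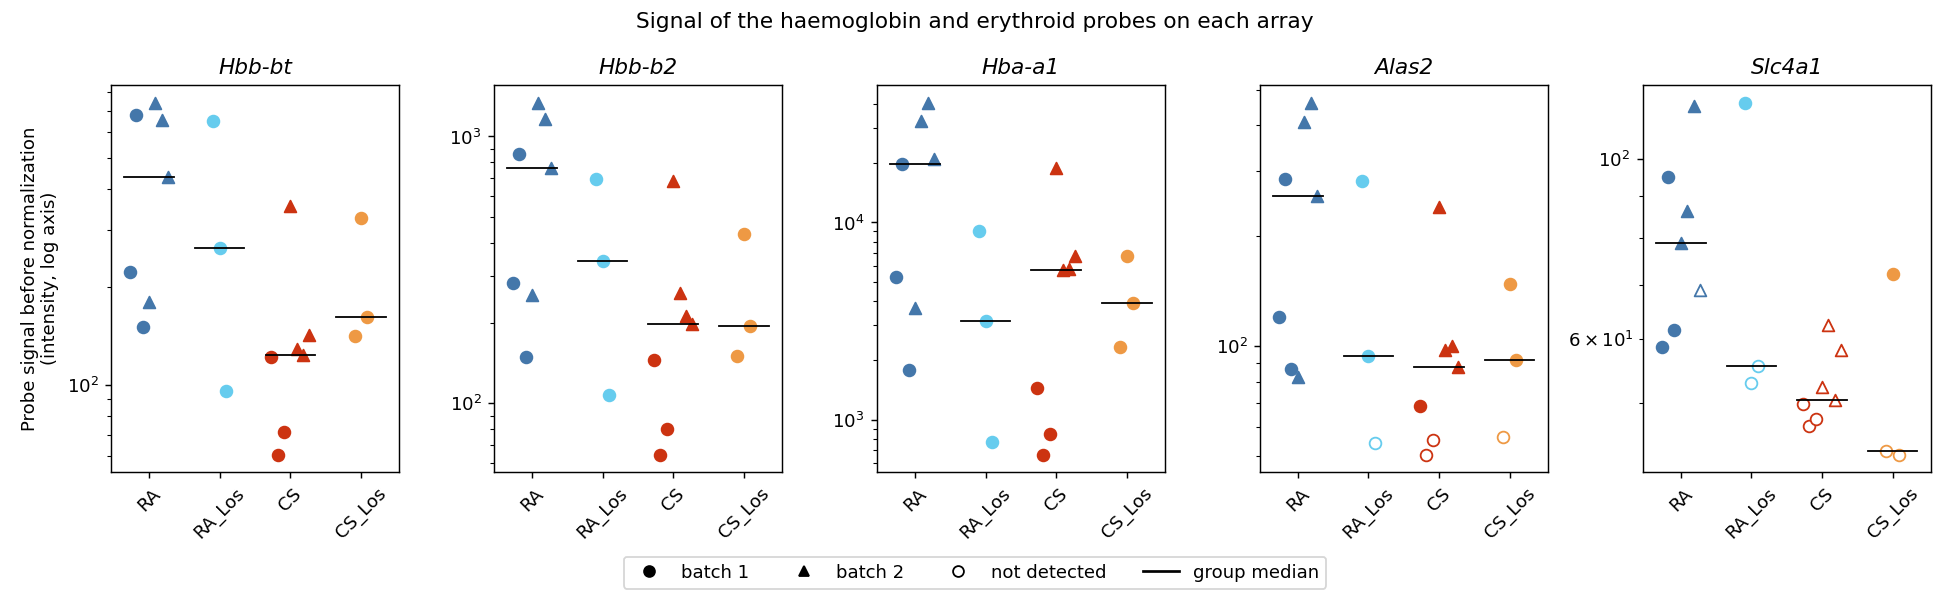
Signal of each member's probe before normalization (intensity, log axis) on each of the 20 arrays, by group. Circles are batch 1, triangles batch 2, open symbols arrays on which the probe was not detected, and horizontal lines group medians; every panel has its own scale. Slc4a1 has 6 filled RA symbols of 7 and 0 filled CS symbols of 7, and CS 4 is the highest CS point for the globins and Alas2.

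The comparison of CS with RA asks what smoke exposure does to lung transcripts without losartan. In the fit over 14 arrays with a batch term, Hbb-bt fell by 1.98 ± 0.448 on the log2 scale (SE), a 3.94-fold lower level in CS (adjusted p = 0.00828). Hbb-b2 fell by 1.87 ± 0.496, a 3.65-fold lower level (adjusted p = 0.0208). Alas2 fell by 1.69 ± 0.481, a 3.23-fold lower level (adjusted p = 0.0298). Slc4a1 was called as well (log2 change -0.89 ± 0.200, adjusted p = 0.0080). It passed the filter on detection, at least 3 arrays, only through RA, with 6 RA arrays, 1 RA_Los and 1 CS_Los array detected. Its call is therefore no support of its own. Because Slc4a1 was not detected on any CS array, its change is given as a bound. It was at least 1.37-fold lower in CS, from the RA mean against the dimmest detected signal of each CS array or the probe's own, whichever was higher.

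Hba-a1 had a log2 change of -1.70 ± 0.567 (95% interval -2.90 to -0.49) and did not pass the threshold (adjusted p = 0.0607). So 4 of the 5 members were called lower in CS and 0 higher. Among them Slc4a1 was kept by the filter only through its RA arrays. Over all features 12.8% were called in either direction and 6.73% were called lower, 856 against 775 higher. The members' median log2 change was -1.70, against -0.0048 over all 12719 features. Ordered from the lowest log2 change, Hbb-bt stood 3rd, Hbb-b2 4th, Hba-a1 6th and Alas2 7th. The 5 genes share arrays and, for the beta globins, sequence, so these are not 5 independent results. They were also chosen with earlier results of these data known.

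Hbb-bt and Hbb-b2 kept their calls when any of the 14 arrays was left out, with adjusted p up to 0.0224 and 0.0496, and so did Slc4a1, up to 0.0199. The call of Alas2 was lost without any of RA 1, 2, 5 and 6 and CS 2, 3, 5 and 7, 8 of the 14 arrays, with adjusted p up to 0.0676. Hba-a1 was called once RA 3, RA 4 or CS 4 was left out, with adjusted p down to 0.00539 and a log2 change of -2.16 without RA 4. With an array left out, 1194 to 1918 of the 12719 features were called.

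Within batch 1 alone, where 0.653% of features were called, the log2 changes were -2.47 ± 0.631 for Hbb-bt, -2.40 ± 0.699 for Hbb-b2, -2.51 ± 0.731 for Hba-a1, -2.27 ± 0.510 for Alas2 and -1.15 ± 0.310 for Slc4a1. None of these 5 was called (adjusted p from 0.0982 to 0.186), while all 5 had unadjusted p under 0.05, as did 1731 of the 12719 features. With array weights, where 286 of the 12719 features were called in batch 1, 3 of the 5 were. They were Hbb-bt (adjusted p = 0.0350), Hbb-b2 (0.0480) and Alas2 (0.0295). Within batch 2, where 5.51% of features were called, the changes were -1.61 ± 0.515, -1.47 ± 0.570, -1.09 ± 0.671, -1.26 ± 0.644 and -0.69 ± 0.214 in the same order. Again none of the 5 was called (adjusted p from 0.0885 to 0.402), though Slc4a1 was with the authors' log2 values (adjusted p = 0.0302). The 10 other settings called 354 to 872 features in batch 2. All 5 were thus negative in both batches.

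In batch 1 every CS array lay below every RA array for 4 of the 5 members on normalized values, against 10% of all features (1278). The exception was Hbb-b2, for which CS 1 at 7.59 stood just above RA 3 at 7.42. In batch 2 the groups did not overlap for Slc4a1 alone, against 7.12% of all features, because RA 4 was low and CS 4 high for the other 4. Slc4a1, kept only through its RA arrays, also counts among the 4 of batch 1, and adds no support in either batch. Without RA 4, batch 2 gave log2 changes of -2.13 for Hbb-bt, -2.06 for Hbb-b2, -1.86 for Hba-a1 and -1.98 for Alas2, all called (adjusted p from 0.0151 to 0.0314). Without CS 4, Hbb-bt was called in batch 2 too (log2 change -2.03, adjusted p = 0.0467). With any array of batch 2 left out, 321 to 667 of the 12719 features were called. Without RA 6 the batch 2 changes shrank to -0.64 for Hba-a1 (adjusted p = 0.678) and -0.44 for Slc4a1. Without RA 2 the batch 1 changes of these genes shrank to -1.64 and -0.73.

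The test of the difference between batches called 0.0157% of features and no member. The interaction ran from 0.45 for Slc4a1 to 1.42 ± 1.13 for Hba-a1 on the log2 scale (adjusted p = 0.998 for all 5). For Hba-a1 its 95% interval was -0.98 to 3.82. The bound on Slc4a1 was at least 1.62-fold lower in batch 1 and at least 1.21-fold in batch 2.

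**Figure D2:**
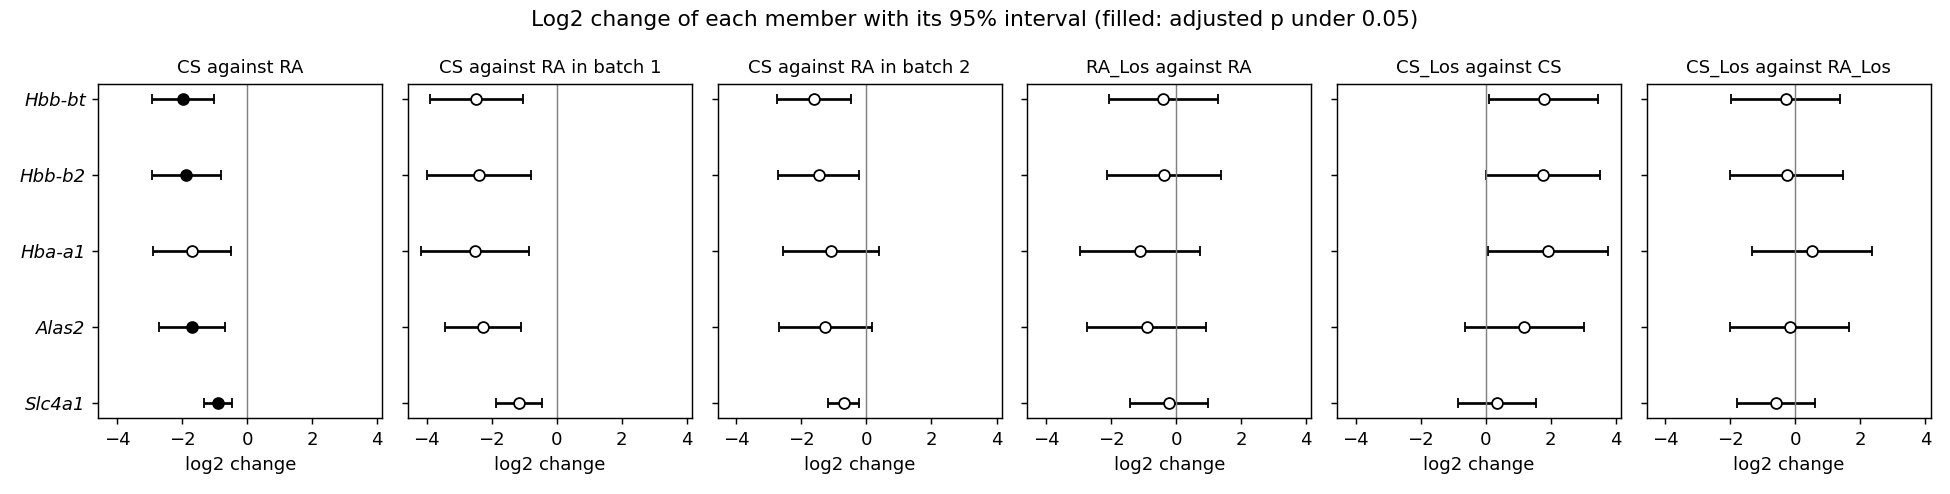
Log2 change of each member (x axis) with its 95% interval in 6 comparisons, 1 panel each. Filled points had an adjusted p under 0.05, which held for 4 of 5 members in CS against RA over both batches and for none in the other panels; the intervals of the losartan comparisons span several log2 units.

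Circadian clock genes changed beside the members, and those values bear on the comparison. Of 16 clock genes tested, 3 rose and 5 fell in CS, among them Dbp, a clock output gene (2.60 ± 0.269, adjusted p = 1.49e-05), and Nfil3, a repressor of the same target sites (-1.26 ± 0.142, adjusted p = 3.34e-05). Dbp lay between 7.90 and 9.03 log2 units on the RA arrays and between 9.84 and 12.33 on the CS arrays. Within the losartan groups it was 8.97, 11.91 and 12.51 on RA_Los 1 to 3 and 9.61, 8.66 and 12.02 on CS_Los 1 to 3. RA_Los 1 and CS_Los 2, the lowest Dbp arrays of their groups, were the highest for all 5 members. Other arrays went the other way. CS 1, the highest Dbp array of the CS group, was the highest CS array of batch 1 for the globins and Alas2. Slc4a1 was not detected on these arrays. CS_Los 3, the highest Dbp array of its group, stood above CS_Los 1 for the globins and Alas2. On neither of these arrays was Slc4a1 detected.

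After centring on group and batch, the correlation with the members' mean over 20 arrays was -0.47 for Dbp and 0.59 for Nfil3, given as a description. When the leading 2 principal components of the clock genes entered the fit as covariates, over all 20 arrays, a choice made after seeing the data, the fit called 0 features (0%; 1092 at an unadjusted p under 0.05) and 0 members. In it the members' log2 changes were 0.16 ± 0.738 for Hbb-bt, 0.39 ± 0.793 for Hbb-b2, 0.50 ± 0.945 for Hba-a1, 0.93 ± 0.810 for Alas2 and 0.59 ± 0.373 for Slc4a1. The sign of all 5 thus turned, with intervals that span 0, such as -1.39 to 1.70 for Hbb-bt. The clock components and smoke vary together in these arrays and cannot be told apart.

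Losartan was compared in the 12 arrays of batch 1, with 3 arrays a group and 1 shared estimate of the spread. For smoke with against without losartan, Hbb-bt had a log2 change of 1.78 ± 0.775 (adjusted p = 0.826), Hbb-b2 1.76 ± 0.809 (adjusted p = 0.833) and Hba-a1 1.92 ± 0.853 (adjusted p = 0.831). Alas2 had 1.19 ± 0.851 and Slc4a1 0.35 ± 0.555. No member was called, and no feature was (0%; 756 at an unadjusted p under 0.05, these 3 globin genes among them). The 95% interval ran from 0.07 to 3.76 for Hba-a1 and from -0.65 to 3.03 for Alas2.

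For room air with against without losartan, 0.00786% of features were called, 1 in all (606 at an unadjusted p under 0.05). The members had log2 changes of -0.40 ± 0.775 for Hbb-bt, -0.37 ± 0.809 for Hbb-b2, -1.10 ± 0.853 for Hba-a1, -0.90 ± 0.851 for Alas2 and -0.22 ± 0.555 for Slc4a1. None was called, and the 3 RA_Los arrays ranged more widely than this, from 10.23 to 13.72 for Hba-a1 on the normalized log2 scale. Leaving out RA 2 or RA_Los 3 turned the sign for both beta globins and Slc4a1.

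Smoke with losartan against room air with losartan gave log2 changes from -0.59 ± 0.555 for Slc4a1 to 0.52 ± 0.853 for Hba-a1, with no feature called (0%; 680 at an unadjusted p under 0.05). For the members, the interaction term between losartan and smoke was 2.18 ± 1.10 for Hbb-bt, 2.13 ± 1.14 for Hbb-b2, 3.02 ± 1.21 for Hba-a1, 2.10 for Alas2 and 0.56 ± 0.784 for Slc4a1. No feature passed (0%; 912 at an unadjusted p under 0.05, of which Hba-a1 was 1, with an adjusted p of 0.652 from limma). The losartan comparisons share arrays, so their values are not independent of each other.

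The members ranged widely within groups as well as between them. After the mean of each group and batch was removed, the SD over arrays was 1.30 log2 units for Hba-a1, 1.28 for Alas2, 1.18 for Hbb-b2, 1.11 for Hbb-bt and 0.69 for Slc4a1. The median over all 12719 features was 0.218. Hba-a1 stood 37th from the highest. In batch 1 RA 2 and RA_Los 1 were the highest 2 arrays for all 5 members, and in batch 2 RA 6 was the highest for all 5.

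The centred values of the members varied together across the 20 arrays. For the 6 pairs among Hbb-bt, Hbb-b2, Hba-a1 and Alas2, Pearson's r was 0.95 to 0.99 and Spearman's rho 0.93 to 0.97. For the 4 pairs with Slc4a1, r was 0.67 to 0.75 and rho 0.57 to 0.63. Slc4a1 was detected on only 8 of the 20 arrays and on 0 of 7 CS arrays, so most of its values lie near the floor. Its lower r can therefore not be read as a looser relation. All 10 pairs passed a permutation test that shuffled arrays within group and batch (two-sided, Benjamini-Hochberg adjusted p up to 0.0195 for r and up to 0.0377 for rho). Without the 2 arrays farthest from the median, the 6 pairs held (r from 0.93 to 0.99) and the 4 with Slc4a1 did not (r from 0.43 to 0.63, adjusted p up to 0.193). The relation of Slc4a1 thus rests on those arrays, which included RA_Los 1 in every pair.

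Within batch 1, over 12 arrays, r was 0.93 to 0.99 among the 6 pairs and 0.78 to 0.88 for those with Slc4a1. Within batch 2, over 8 arrays, it was 0.96 to 0.99 and 0.39 to 0.52. There Slc4a1 was detected on 3 of 4 RA arrays and 0 of 4 CS arrays.

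**Figure D3:**
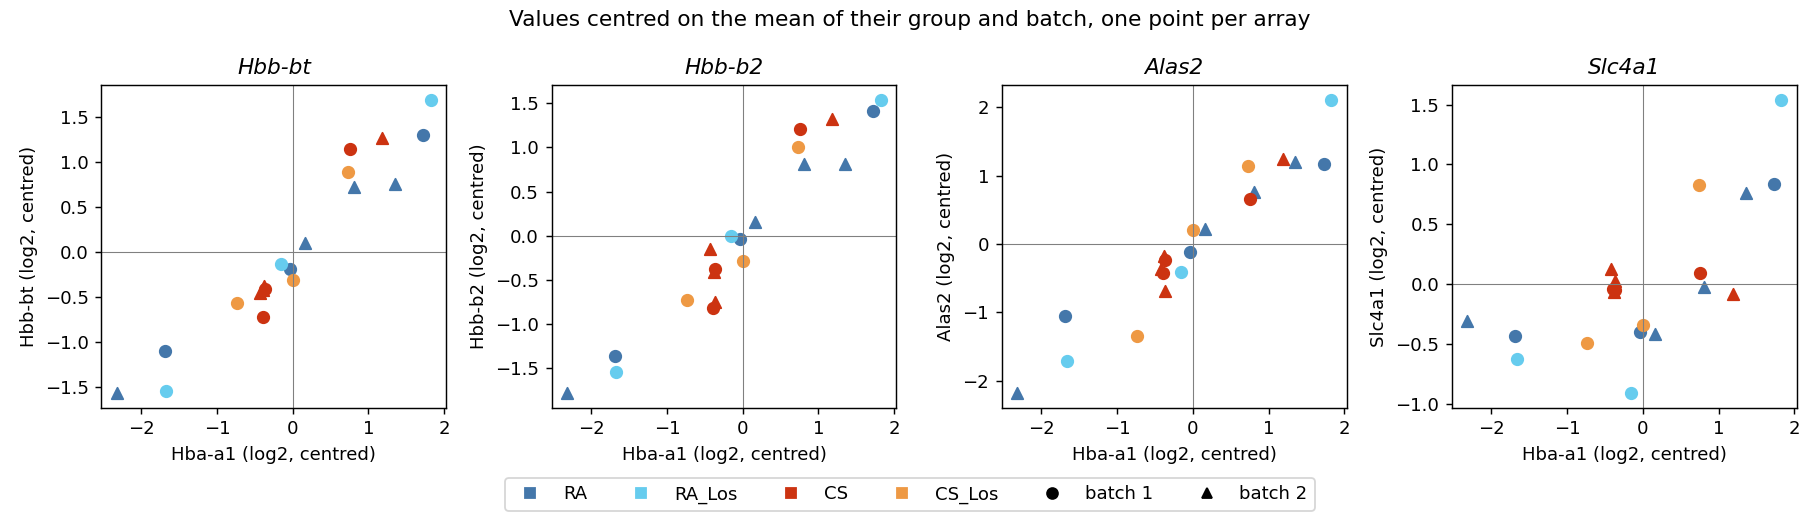
Normalized log2 values after removing the mean of each group and batch, Hba-a1 on the x axis and each other member on the y axis, 1 point per array (20). Colours are groups, circles batch 1 and triangles batch 2. Hbb-bt, Hbb-b2 and Alas2 follow Hba-a1 along a line (r at least 0.95). Slc4a1, detected on 8 of the 20 arrays, has an r of 0.70.

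The difference between globin probes on 1 array was examined after its values had been seen, and only its change between arrays can be read, since probes hybridise differently. Hbb-bt minus Hbb-b2 lay between -0.41 and 0.02 log2 units on the 12 arrays of batch 1 and between -1.25 and -0.58 on the 8 of batch 2. The batches did not overlap, in RA or in CS, and they did not with 75th percentile centring either (-0.44 to 0.03 and -1.31 to -0.63). Hbb-b2 minus Hba-a1 lay between -3.77 and -3.33 on the RA_Los arrays and between -4.54 and -3.90 on the RA arrays of the same batch. These groups overlapped barely for Hbb-bt minus Hba-a1 (-3.88 to -3.63 against -4.88 to -3.88). With 75th percentile centring they lay apart there (-3.86 to -3.54 against -4.92 to -3.89). The same groups overlapped for the ratio of Hbb-b2 to Hba-a1 in signals before normalization (0.0768 to 0.139 against 0.0435 to 0.0831). How often such groups lie apart for other pairs of probes was not counted. Hbb-b2 minus Hba-a1 ran from -4.54 to -3.67 on the CS arrays of batch 1 and from -4.56 to -4.00 with losartan.

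**Figure D4:**
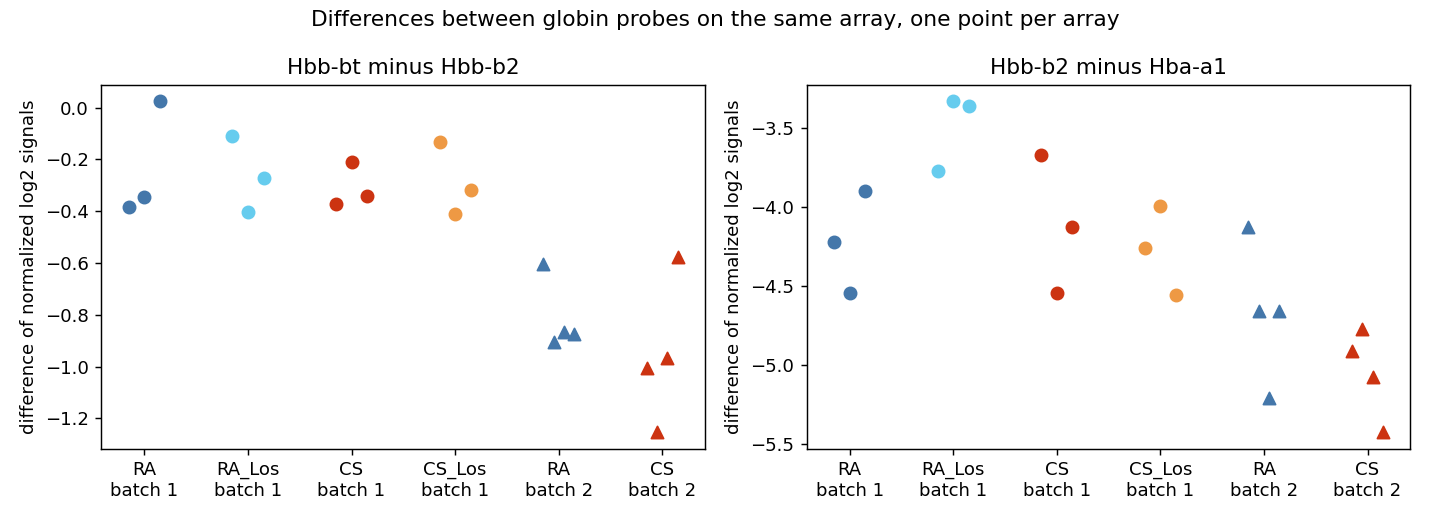
Difference of normalized log2 signals between globin probes on the same array (y axis), by group and batch (x axis), 1 point per array. For Hbb-bt minus Hbb-b2 (left) all 12 batch 1 points lie above all 8 batch 2 points. For Hbb-b2 minus Hba-a1 (right) the 3 RA_Los points lie above the 3 RA points of batch 1. For Hbb-bt minus Hba-a1 (not drawn) the same groups overlap barely, near -3.88.

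Other genes of the red cell were read from lists. Their counts stand beside the 12.8% of all features called in CS against RA, with 6.73% called lower. Of 8 globin genes on the array, the 5 embryonic or minor ones, Hbb-y, Hbb-bh1, Hba-x, Hbq1a and Hbq1b, were not kept by the filter on detection. Among 12 haem synthesis genes 2 fell and 0 rose in CS: Alas2, and Slc25a38, the mitochondrial glycine carrier that feeds the pathway (-0.66 ± 0.0728, adjusted p = 2.79e-05). Alas1, the housekeeping counterpart of Alas2, had a log2 change of -0.32 ± 0.108 (adjusted p = 0.0643), and Fech, which inserts iron into haem, 0.19 (adjusted p = 0.0891). Ppox had the largest change of those not called in this list (0.45 ± 0.158, adjusted p = 0.0742). The list's median log2 change was 0.04, against -0.0048 over all features.

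Of 18 membrane and skeleton genes on the array 13 were tested, of which 2 fell and 0 rose: Slc4a1, and Tmod1, which caps actin filaments of the membrane skeleton (-0.46 ± 0.0806, adjusted p = 0.00151). The beta spectrin gene Sptb (0.06), the ankyrin gene Ank1 (0.20) and Aqp1 (-0.20) were not called. Epb42, Rhd, Kel, Ermap and Add2 were not kept. Of 13 enzyme and late maturation genes tested, 1 fell, Trak2, a mitochondrial transport adaptor (-0.35 ± 0.101, adjusted p = 0.0316), and 0 rose. The medians of the 2 lists were -0.09 and -0.09.

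Among 9 erythroid transcription factor and receptor genes tested, 4 rose in CS and 0 fell, against 12.8% of all features called in either direction. Bcl11a, a repressor of fetal globin genes that B cells also use, rose by 1.06 ± 0.149 (adjusted p = 0.000245), Lmo2 by 0.68 ± 0.0867 (adjusted p = 0.000105), Nfe2 by 0.67 ± 0.140 (adjusted p = 0.00457) and Ldb1 by 0.23 ± 0.0704 (adjusted p = 0.0403). Lmo2 and Ldb1 encode partners in the complex that GATA1 binds, and endothelial cells use Lmo2 as well. Klf1 (0.09) was not called, and Gata1, Gfi1b and Sox6 were not kept. The direction of these 4 was opposite to that of the members called. After centring on group and batch, they did not follow the members' mean. Their r to it was -0.52, -0.61, -0.07 and -0.05 in that order, while that of Klf1 was 0.62.

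Among genes that clear haemoglobin and haem, calls went both ways, beside 12.8% of all features called in either direction. Of 12 tested, 2 rose, the iron exporter gene Slc40a1 (1.01 ± 0.0881, adjusted p = 3.01e-06) and haptoglobin, Hp, whose protein binds free haemoglobin (0.40 ± 0.110, adjusted p = 0.0248). The macrophage receptor gene for that complex, Cd163, fell (-0.63 ± 0.190, adjusted p = 0.0383). Hmox1, which breaks haem down, had a log2 change of 0.06 ± 0.171 (adjusted p = 0.874).

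**Figure D5:**
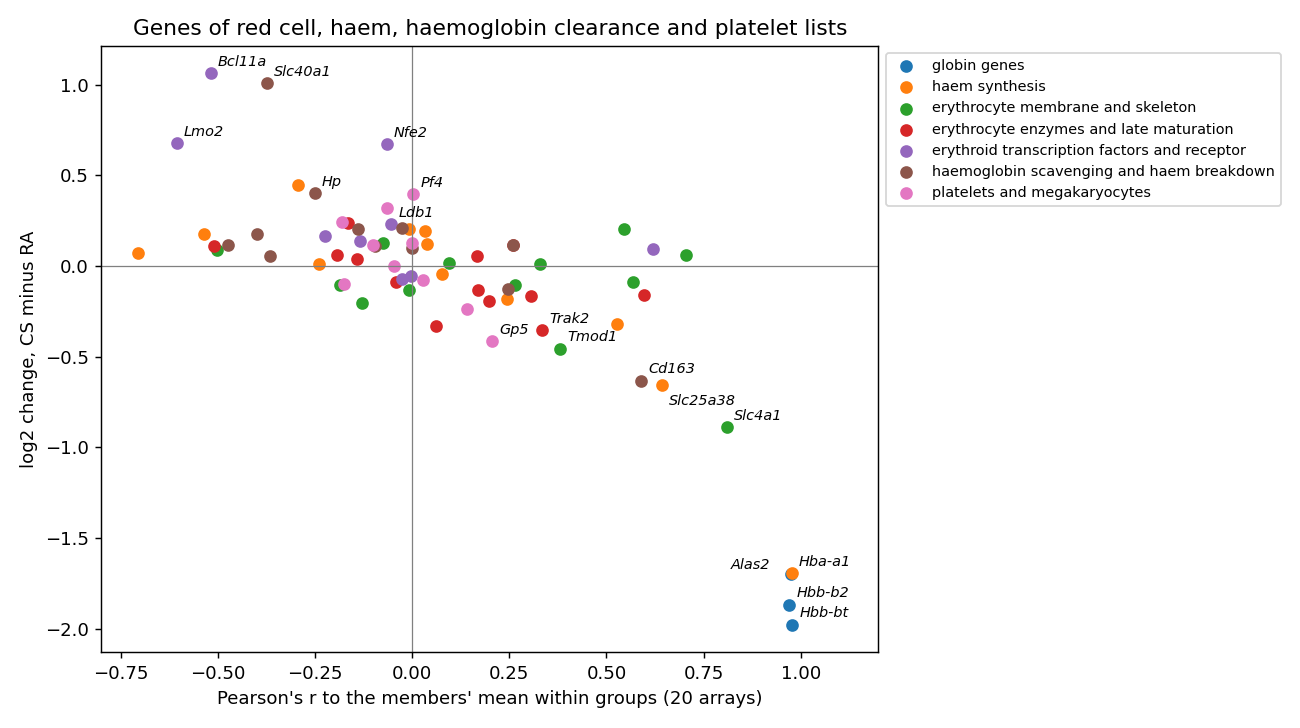
Genes of 7 lists, with Pearson's r to the members' mean after centring on group and batch (x axis, 20 arrays) and the log2 change, CS minus RA (y axis). Members and genes with an adjusted p under 0.05 are named, and the members' own r is high by construction. The globins and Alas2 stand alone at the lower right. Slc4a1 (r 0.81) lies apart from them, and Slc25a38 (r 0.64) and Cd163 (r 0.59) lie nearest to Slc4a1 among the named genes.

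Markers of other cells that blood brings into the lung were set beside the members. Over all features 12.8% were called in either direction between CS and RA. Of 10 platelet genes tested, Pf4 rose (0.40, adjusted p = 0.0339) and Gp5 fell (-0.41, adjusted p = 0.0257), and the list's median was 0.06. Their summed normalized signal ran from 5152 to 5287 on RA and from 4457 to 5129 on CS arrays of batch 1, and from 3744 to 4859.5 and from 3926 to 4548 in batch 2. Of 12 neutrophil genes, 9 rose and 0 fell (median 1.03), and the sum ran from 2398 to 4138.5 on RA and from 5371 to 9853 on CS arrays of batch 1, and from 3729 to 5396 and from 8480.4 to 18364 in batch 2. Of 9 lymphocyte genes 4 rose and 0 fell (median 0.54), the sum running from 682 to 874 on RA and from 1151 to 1442 on CS arrays of batch 1, and from 725 to 1574 and from 1404 to 2239 in batch 2. The part of these cells in the members' change was not tested.

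By likeness, 7 of the 12719 features had r of at least 0.8 to the members' mean, and 48 had at least 0.7. Of the 7, 5 were the members, whose own r is high by construction because they make up that mean. The nearest non-members were 2 probes with no annotated symbol (r 0.93 and 0.85), with log2 changes between CS and RA of -0.96 (adjusted p = 0.0323) and -0.69 (adjusted p = 0.0338). Next came Bag3, a co-chaperone gene (r 0.79, log2 change -0.45, adjusted p = 0.0128), Syncrip, which encodes an RNA-binding protein (r 0.79, -0.31, adjusted p = 0.0255), and Ccdc117 (r 0.78, -0.96, adjusted p = 4.65e-05). At the other end stood Ctsw, a cathepsin gene of cytotoxic lymphocytes (r -0.81). The lymphocyte list had a median r of -0.54, with Cd8b1, a chain of the CD8 coreceptor, at -0.74, against 0.01 over all features. These correlations over 20 arrays share each array's scaling and are descriptions only.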

How the data were processed

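The deposited table holds bead-summarised probe intensity and a detection p-value for each array, per the file headers. BeadStudio is named in the submitters' processing notes, with no version. A second deposited table holds the authors' log2 values, equal to log2 intensity with each array's median set to 8 (largest difference 0.00694), used only as an alternative. The sources used here give no build or annotation version; symbols came from GEO's platform annotation, which names 23141 of 25697 probes. Intensities were background-corrected with limma's nec (offset 16, negative controls inferred from detection p), quantile normalized on the linear scale and taken to log2. A probe was kept if at least 3 arrays had its detection p under 0.05 (17012, 66.2%), and the brightest kept probe stood for its gene. Groups were compared with limma 3.58.1 in R 4.3.3 (lmFit, eBayes, Benjamini-Hochberg adjustment over 12719 features), called at adjusted p under 0.05. CS against RA used 14 arrays with batch as a term, and losartan comparisons the 12 batch 1 arrays. The fit was tested on simulated data. Pairwise correlations used 100000 permutations. The members and lists were chosen with earlier results of these data known. Genes were named by rule: the members, up to 5 genes of each list with called ones of largest change first, and the 10 features most like the members' mean. Within a list, genes not called were not taken in order of change. Clock genes, and Ctsw and Myh7 for their likeness, were added after seeing values. Replicate numbers did not pair the samples (2 of 16 same-numbered pairs correlated over 0.1). The number of arrays limits the precision.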

Additional observations from a re-analysis of the deposited data

Results flagged for a closer look

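Among the 4 CS arrays of batch 2, CS 4 stood apart from the rest for both Hbb-bt and Hba-a1. For Hbb-bt it was at 7.71 log2 units, the next array at 6.06 and the lowest at 5.99 (gap over range 0.957). For Hba-a1 it was at 13.62, the next at 12.07 and the lowest at 12.01 (gap over range 0.967). Dixon's rule was applied to 20 groups of 4 or 7 arrays, and chance flags about 1 in 20 groups. The members share arrays, so the 2 results are not independent of each other.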

How the results depend on the processing

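Of 14 other settings for CS against RA, Hbb-bt kept its call in 13, Slc4a1 in 12, Hbb-b2 in 10 and Alas2 in 7, and Hba-a1 became called in 3, with no background correction, 75th percentile centring or the authors' log2 values. Members called lower numbered 2 with an eBayes trend and robust fit, with no batch term, with all 20 arrays in 1 fit and with the replicate block, and 3 to 5 with any array left out. With clock gene components as covariates (chosen after seeing the data) it was 0, features called were 0, and the log2 changes turned to 0.16 (Hbb-bt), 0.39 (Hbb-b2), 0.50 (Hba-a1), 0.93 (Alas2) and 0.59 (Slc4a1). Features called, 1631 over both batches, were 439 with no batch term, 745 with all 20 arrays, and 1194 to 1918 with an array left out. In batch 1 the 83 became 224 with no background correction, 166 with offset 50, 194 with 75th percentile centring, 202 with the authors' values, 8 with no detection filter, 228 with trend and robust, 286 with array weights and 32 with the replicate block, and 4 to 154 with an array left out. In batch 2 the 701 became 354 with the replicate block and 321 to 667 with an array left out. The replicate block was a fit on shared numbers that did not pair the samples. For smoke by batch the 2 became 0 with no background correction, 75th percentile centring, the authors' values or detection on at least 7 arrays, 1 with offset 50, all kept probes, trend and robust or the replicate block, and 1 to 3 with an array left out; there the value of Slc4a1 turned to -0.0662 with 75th percentile centring and -0.0733 with the authors' values. For RA_Los against RA the 1 became 0 with no background correction, offset 50, 75th percentile centring, the authors' values, no detection filter or at least 7 arrays, and 0 to 1 with an array left out. With an array left out, losartan log2 changes ranged as follows. For RA_Los against RA they were -1.24 to 0.38 (Hbb-bt), -1.14 to 0.40 (Hbb-b2) and -0.99 to 0.24 (Slc4a1). For CS_Los against CS Slc4a1 was -0.0692 to 0.59. For CS_Los against RA_Los they were -1.07 to 0.55 (Hbb-bt), -1.04 to 0.50 (Hbb-b2), -0.32 to 1.43 (Hba-a1), -1.03 to 0.88 (Alas2) and -1.04 to 0.18 (Slc4a1). Calls in the gene lists moved too. Scavenging genes called higher, 2, were 1 with 75th percentile centring, array weights, the replicate block, no batch term or all 20 arrays. Cd163 and Pf4 were each lost with no detection filter, no batch term or all 20 arrays, Trak2 with no batch term or all 20 arrays, and Gp5 with no batch term or the replicate block. Lymphocyte genes called higher, 4, were 1 with no batch term, and the 1 endothelial gene was lost with all 20 arrays. With clock gene components every list had 0 calls. Correlated pairs numbered 6 of 10 without the 2 farthest arrays. The cause was not tested for any of these. The low signal of Slc4a1 leaves its changes bounds.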

Other observations

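Heart muscle genes, read as a list because atrial muscle can be cut with the lung, varied between arrays more than between groups. Of 12 tested, 0 rose and 0 fell in CS (median log2 change 0.37), and their summed normalized signal ran from 1394 to 52172 within the 3 RA_Los arrays alone. Myh7, a myosin heavy chain gene, had an r of 0.74 to the mean of the haemoglobin and erythroid genes after centring on group and batch, and the list's median r was 0.36. Of 9 endothelial genes tested, 1 rose in CS, and the list's median change was 0.01.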
